A study of Mus musculus with 6 samples.

Results

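The genes described here make, desaturate, burn, take up and store fatty acids. They are 37 genes, found by their gene name among the 55860 rows of a count table from mouse ovarian granulosa cells, and all 37 were found. The study compared 3 libraries of Il22r-/- granulosa cells with 3 libraries of Il22r+/+ granulosa cells. In both genotypes the cells came from the ovary by density gradient centrifugation and were kept for 12 h in DMEM-F12 medium with 10% serum and antibiotics before RNA was extracted. The labels give no strain, age or hormone treatment, do not say which exons were removed or whether the receptor is missing from every cell of the mouse, and do not say whether the libraries came from separate animals. The p-values below therefore measure the spread between these libraries, which may be technical.

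Granulosa cells surround the oocyte in the follicle and make steroid hormones from cholesterol, which they also store as esters in lipid droplets. Fatty acids are built in the cytosol from acetyl-CoA, lengthened and desaturated in the endoplasmic reticulum, and joined to CoA by acyl-CoA synthetases before any further use. They are then either esterified into triglyceride and phospholipid or carried into mitochondria by the carnitine shuttle and oxidised. The receptor named in the genotype binds interleukin 22, a cytokine best known for its action on epithelia, and signals mainly through STAT3.

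Read totals (in M, or mega-reads) were 18.11, 18.12 and 14.95 M for the Il22r-/- libraries and 17.7, 17.43 and 17.52 M for the Il22r+/+ libraries. In a principal component analysis the genotypes split along component 1 (89.35% of variance), while component 2 (4.21%) set Il22r-/- replicate 3 off from the rest. Il22ra1, taken as the targeted gene (chromosome 4, 135728172 to 135752140, plus strand, mm10), had 5, 2 and 0 reads in Il22r-/- libraries and 1, 5 and 4 reads in Il22r+/+ libraries, too few to check the genotype labels. Of 16 granulosa cell markers 14 were testable, and their summed level was 9798 to 10842 CPM in Il22r-/- libraries and 10520 to 11566 CPM in Il22r+/+ libraries (CPM, counts per M reads after TMM scaling). Of these 14, 5 passed higher (Fshr, Amhr2, Inhba, Nr5a2 and Cyp11a1, log2 0.70 to 4.50) and 4 lower (Foxl2, Nr5a1, Gja1 and Serpine2, log2 -1.70 to -0.47). Inhba was named by rule and the other 8 after their values were seen. The Foxl2 call was lost under 6 of the 16 alternative settings described below. Among these were leaving out Il22r-/- replicate 1 or 2 or Il22r+/+ replicate 1 or 3. Fshr entered the test only through the Il22r-/- libraries, where it is high, so its call is given as description. Cyp19a1, the aromatase gene, averaged 0.0219 CPM in Il22r-/- cells and 0.708 CPM in Il22r+/+ cells, too few reads to test. In edgeR's quasi-likelihood test with Benjamini-Hochberg adjustment, 6963 of 15227 tested genes passed an adjusted p of 0.05, 3592 higher and 3371 lower in Il22r-/- cells.

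Of the 37 lipid genes 24 passed that test (64.9%, against 45.7% of all tested genes), 10 higher in Il22r-/- cells (23.6% of all tested genes) and 14 lower (22.1%). The CPM of 28 genes did not overlap between the genotypes, against 55.9% of all tested genes. Sizes were close to those of other genes: 7 were called with at least a 2-fold difference (14.3% of all tested genes), and the median absolute log2 difference was 0.370 among the 37 and 0.359 among all tested genes. The median signed log2 difference was -0.07, against 0.03 for all tested genes. Under all 16 alternative settings 11 genes stayed lower (Srebf1, Fasn, Scd1, Scd2, Fads1, Fads2, Acsl4, Acaa2, Lpl, Gpam and Lpin1) and 4 stayed higher (Acsl5, Cd36, Fabp4 and Fabp5), of which Fabp4 entered the test only through the Il22r-/- libraries, where it is high, so its call is no support for the count. The count of higher calls was 6 without Il22r-/- replicate 1, 5 without Il22r-/- replicate 2, 4 without Il22r+/+ replicate 1 and 5 without Il22r+/+ replicate 2.

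**Figure D1:**
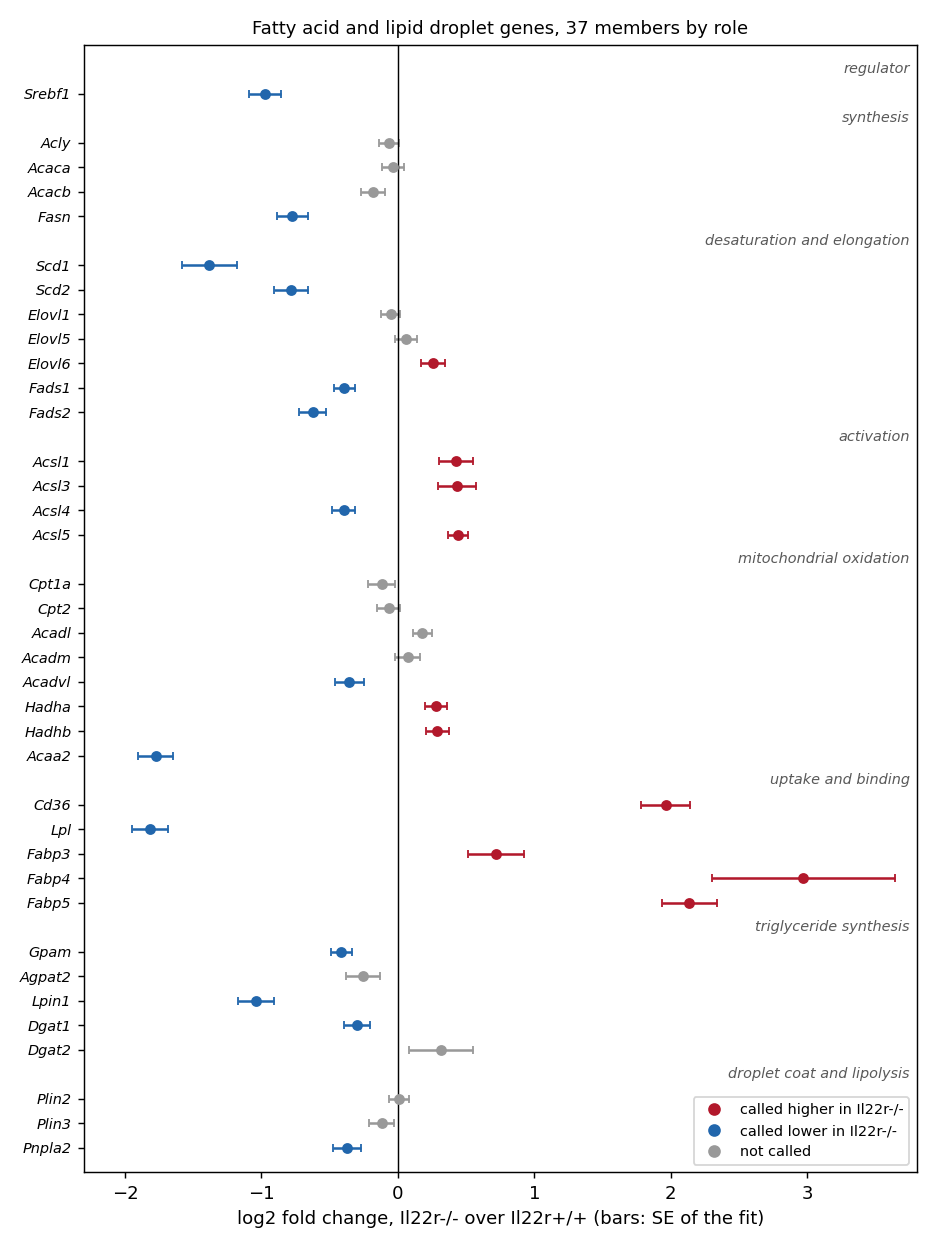
Log2 fold change (Il22r-/- minus Il22r+/+, edgeR) of each of the 37 genes with the standard error of the fit, grouped by role. The lowest values belong to Lpl (-1.82) and Acaa2 (-1.77) and the highest to Fabp4 (2.97) and Fabp5 (2.14).

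Of Srebf1 and the 4 synthesis genes, Srebf1 and Fasn fell and the others did not pass the test. Srebf1 (ENSMUSG00000020538, chromosome 11, 60199089 to 60222581, minus strand) encodes SREBP-1, the transcription factor that drives the fatty acid synthesis genes. Its level was 88.3, 90.9 and 121 CPM in Il22r-/- libraries, against 193, 188 and 209 CPM in Il22r+/+ libraries. Every Il22r-/- library lay below every Il22r+/+ library, and the log2 fold change was -0.97 ± 0.12 (standard error; 1.96-fold lower, edgeR adjusted p = 0.000101). Fasn, the synthase that assembles palmitate, had 221, 222 and 296 CPM in Il22r-/- libraries and 433, 426 and 403 CPM in Il22r+/+ libraries. It fell 1.71-fold (log2 -0.77 ± 0.11, edgeR adjusted p = 0.000347), again with no overlap. Acly, which releases acetyl-CoA from citrate, averaged 310.4 ± 9.27 CPM in Il22r-/- cells and 325 ± 5.85 CPM in Il22r+/+ cells (SD, n = 3 each; log2 difference 95% interval -0.23 to 0.10). Acaca, the cytosolic acetyl-CoA carboxylase, averaged 56.1 ± 2.20 CPM in Il22r-/- cells and 57.5 ± 4.58 CPM in Il22r+/+ cells (interval -0.21 to 0.15). Acacb, the carboxylase at the mitochondrial surface, averaged 24.3 ± 0.824 CPM in Il22r-/- cells and 27.5 ± 0.828 CPM in Il22r+/+ cells (interval -0.38 to 0.02, edgeR adjusted p = 0.126) and did not overlap between the genotypes. Of the 50-base stretches of Acaca, 30.4% also occur in transcripts of other genes, of which Gm5182 shares the most, so reads of Acaca could be split.

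The bases just before the RefSeq start sites of 4 genes with lower levels in Il22r-/- cells (GRCm38.p6, the mm10 build) are shown so that their content can be read directly; each gives 150 bases, 5′ to 3′ on the gene's own strand, and capitals mark CCAAT on either strand.
Srebf1, chr11:60222582-60222731, minus strand: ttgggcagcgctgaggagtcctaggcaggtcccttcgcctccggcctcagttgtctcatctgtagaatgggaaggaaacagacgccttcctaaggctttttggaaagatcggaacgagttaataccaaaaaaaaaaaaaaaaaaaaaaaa
Fasn, chr11:120824548-120824697, minus strand: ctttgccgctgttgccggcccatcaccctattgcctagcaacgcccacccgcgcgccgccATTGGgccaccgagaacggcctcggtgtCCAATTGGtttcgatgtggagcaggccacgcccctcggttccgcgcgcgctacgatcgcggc
Lpin1, chr12:16610967-16611116, minus strand: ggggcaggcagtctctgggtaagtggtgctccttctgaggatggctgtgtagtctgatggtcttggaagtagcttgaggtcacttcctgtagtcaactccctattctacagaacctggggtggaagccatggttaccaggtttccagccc
Gpam, chr19:55127239-55127388, minus strand: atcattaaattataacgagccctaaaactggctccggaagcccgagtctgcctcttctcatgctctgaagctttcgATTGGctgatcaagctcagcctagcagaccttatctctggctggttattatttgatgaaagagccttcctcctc
Fasn held 3 matches, of which 2 overlap on opposite strands, Gpam held 1, and the printed bases of Srebf1 and Lpin1 held none. The Lpin1 start used lies inside the counted gene (16535669 to 16646966, minus strand). Its printed bases therefore do not precede the outer end of that gene. RefSeq start windows of 300 bases (250 before the start and 50 after it) could be matched for 28 of the 37 genes. The other 9 (Acaa2, Dgat1, Dgat2, Fabp4, Fabp5, Fads1, Lpl, Scd1 and Scd2) were not scanned, so the counts below do not cover them. CCAAT on either strand lay in 15 of their 33 windows (14 genes), against 37.4% of all 32851 windows. The sterol regulatory element TCACNCCAC was in the window of 1 gene, Acsl1 (1.24% of all windows), and the E-box CACGTG in those of Elovl5 and Plin2 (7.15%). The direct repeat recognised by PPAR factors was in none (0.0396%), and TTCNNNGAA, the core of a STAT site, was in those of Cpt2, Hadha and Hadhb (8.3%).

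All 4 desaturase genes among the 37 fell, and none of the elongase genes among the 37 did. Scd2, a stearoyl-CoA desaturase that makes monounsaturated fatty acids, was the most abundant of the 37 genes per length, with a mean of 267 FPKM in Il22r-/- cells and 469 FPKM in Il22r+/+ cells (FPKM, reads scaled by gene length and library). Its CPM was 1157, 1522 and 1655 in Il22r-/- libraries, against 2398, 2545 and 2521 in Il22r+/+ libraries, a 1.72-fold lower level (log2 -0.78 ± 0.13, edgeR adjusted p = 0.000602). Its neighbour Scd1 (ENSMUSG00000037071, chromosome 19, 44394455 to 44407879, minus strand), of the same enzyme family, had 45.2, 73.8 and 82.9 CPM in Il22r-/- libraries and 179.7, 167 and 179 CPM in Il22r+/+ libraries. Scd1 fell 2.61-fold (log2 -1.38 ± 0.20, edgeR adjusted p = 0.00116). Fads1 and Fads2 encode the front-end desaturases that turn dietary precursors into polyunsaturated fatty acids such as arachidonate. Fads2 had 51.5, 65.8 and 67.6 CPM in Il22r-/- libraries and 97.2, 93.1 and 94.9 CPM in Il22r+/+ libraries (log2 -0.63 ± 0.10, edgeR adjusted p = 0.000565). Fads1 had 126, 135 and 142 CPM in Il22r-/- libraries and 186, 175 and 168 CPM in Il22r+/+ libraries (log2 -0.39 ± 0.08, edgeR adjusted p = 0.00195). For all 4 desaturases the genotypes did not overlap. Elovl6, which extends palmitate to stearate, went the other way, with 33.3, 36.0 and 38.1 CPM in Il22r-/- libraries and 29.6, 30.6 and 29.5 CPM in Il22r+/+ libraries (log2 0.26 ± 0.09, edgeR adjusted p = 0.0334). Its call was lost under 11 of the 16 alternatives, with adjusted p between 0.00561 and 0.119 over all of them; leaving out any library except Il22r-/- replicate 1 was enough. Elovl1 (log2 -0.05, interval -0.21 to 0.10) and Elovl5 (log2 0.06, interval -0.12 to 0.23), which lengthen saturated and polyunsaturated chains, did not pass the test.

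**Figure D2:**
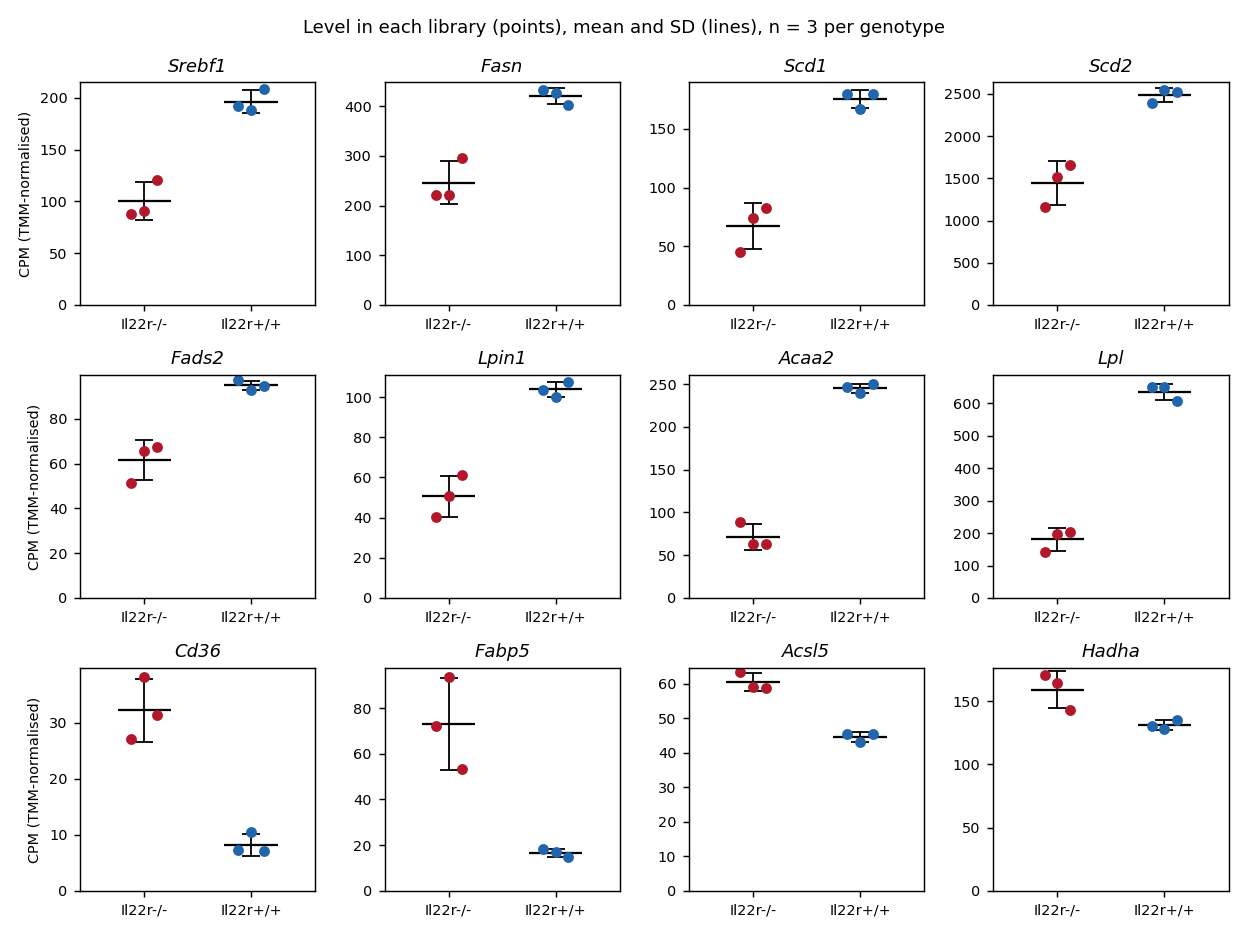
CPM of 12 of the genes in each library, Il22r-/- on the left and Il22r+/+ on the right of each panel, with points for libraries and lines for the mean and SD. Lpl lies between 140.2 and 202 CPM in Il22r-/- libraries and between 607 and 651 CPM in Il22r+/+ libraries.

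Activation genes split, 3 higher and 1 lower. Long-chain acyl-CoA synthetases attach CoA to fatty acids. Acsl5 had 63.5, 59.1 and 58.9 CPM in Il22r-/- libraries and 45.5, 43.0 and 45.5 CPM in Il22r+/+ libraries (log2 0.44 ± 0.07, edgeR adjusted p = 0.000815). Acsl4, the family member that prefers arachidonate, had 102, 108 and 123 CPM in Il22r-/- libraries and 145, 146 and 147 CPM in Il22r+/+ libraries, and fell (log2 -0.40 ± 0.08, edgeR adjusted p = 0.00272). Acsl4 was the most abundant of the 4 per length in both genotypes, at 20.7 FPKM in Il22r-/- cells and 27.8 FPKM in Il22r+/+ cells. Acsl1 averaged 13.4 ± 0.707 CPM in Il22r-/- cells and 9.94 ± 0.532 CPM in Il22r+/+ cells (log2 0.43 ± 0.12, edgeR adjusted p = 0.0163). Acsl3, linked to droplet formation, averaged 21.2 ± 3.90 CPM in Il22r-/- cells and 15.7 ± 0.496 CPM in Il22r+/+ cells (log2 0.43 ± 0.14, edgeR adjusted p = 0.0275). The Acsl1 call was lost under 6 alternatives (adjusted p up to 0.136), among them leaving out Il22r-/- replicate 1 or Il22r+/+ replicate 1 or 3. The Acsl3 call was lost under 8 (up to 0.139), among them leaving out any library except Il22r-/- replicate 1. Parts of Acsl1 (9.91% of exon length), Acsl5 (8.31%) and Acsl3 (5.60%) overlap exons of other genes.

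Of 8 mitochondrial oxidation genes 2 rose and 2 fell. Acaa2 (ENSMUSG00000036880) encodes a thiolase, an enzyme of the last step of the oxidation cycle. It had 89.1, 62.9 and 63.0 CPM in Il22r-/- libraries, against 247, 239 and 249.8 CPM in Il22r+/+ libraries. It fell 3.42-fold (log2 -1.77 ± 0.13, edgeR adjusted p = 5.29e-06), to 47.7 FPKM in Il22r-/- cells, against 166 FPKM in Il22r+/+ cells. The trifunctional protein, which acts on long chains and has a thiolase activity of its own, moved the other way. Its alpha subunit gene Hadha had 170.4, 165 and 143 CPM in Il22r-/- libraries and 131, 128 and 135 CPM in Il22r+/+ libraries (log2 0.28 ± 0.08, edgeR adjusted p = 0.0176). Its beta subunit gene Hadhb had 67.2, 65.3 and 59.7 CPM in Il22r-/- libraries and 48.7, 51.9 and 56.8 CPM in Il22r+/+ libraries (log2 0.29 ± 0.08, edgeR adjusted p = 0.0170). Both calls were lost under the same 5 alternatives, among them leaving out replicate 1 or 2 of either genotype (adjusted p up to 0.0818 for Hadha and 0.0949 for Hadhb). Of the 50-base stretches of Hadhb, 19.7% recur in transcripts of other genes, of which Gm13910 shares the most. The subunit genes lie head to head, and the 85 bases between them (chr5:30155163-30155247, mm10, plus strand) are the shared space before both starts.
Hadha-Hadhb gap: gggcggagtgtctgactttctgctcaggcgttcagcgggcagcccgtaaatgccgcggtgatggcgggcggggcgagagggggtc
The ratio of Hadha to Hadhb FPKM was the closest between the genotypes of 9 ratios compared, with a mean log2 ratio of 0.91 in Il22r-/- libraries and 0.92 in Il22r+/+ libraries. Acadvl, the dehydrogenase for very long chains, averaged 49.1 ± 6.71 CPM in Il22r-/- cells and 62.8 ± 3.90 CPM in Il22r+/+ cells (log2 -0.35 ± 0.10, edgeR adjusted p = 0.0168). Exons of Dvl2 on the opposite strand cover 42.9% of Acadvl's exon length, the strand setting of the counting is not given in the sources used here, and the call was lost under 4 alternatives, among them leaving out Il22r+/+ replicate 1 or 3 (adjusted p up to 0.0769). Cpt1a, which commits fatty acids to the mitochondrion, averaged 267 ± 35.8 CPM in Il22r-/- cells and 289 ± 8.21 CPM in Il22r+/+ cells, with an interval of -0.34 to 0.10 (edgeR adjusted p = 0.356, and 0.0447 without Il22r-/- replicate 1). Acadl, for long chains, averaged 118 ± 6.69 CPM in Il22r-/- cells and 104 ± 1.44 CPM in Il22r+/+ cells and did not pass (log2 0.18, edgeR adjusted p = 0.0592), except without Il22r-/- replicate 3 or with library size scaling alone. Cpt2 (interval -0.25 to 0.12) and Acadm, for medium chains (interval -0.13 to 0.27), did not pass.

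Uptake and binding genes showed the widest differences, in both directions. Lpl, the lipase that frees fatty acids from circulating triglyceride (chromosome 8, 68880491 to 68907448, plus strand), had 140.2, 198 and 202 CPM in Il22r-/- libraries, against 651, 649 and 607 CPM in Il22r+/+ libraries. It fell 3.52-fold (log2 -1.82 ± 0.13, edgeR adjusted p = 3.96e-06). Cd36, a surface receptor for fatty acids and lipoproteins (chromosome 5, 17781690 to 17888801, minus strand), had 27.1, 38.2 and 31.4 CPM in Il22r-/- libraries and 7.24, 10.5 and 7.04 CPM in Il22r+/+ libraries. It rose 3.90-fold (log2 1.96 ± 0.18, edgeR adjusted p = 2.01e-05). The fatty acid binding proteins carry lipid through the cytosol. Fabp5 had 72.4, 93.5 and 53.5 CPM in Il22r-/- libraries and 18.1, 17.2 and 14.7 CPM in Il22r+/+ libraries, 4.39-fold higher (log2 2.14 ± 0.20, edgeR adjusted p = 8.05e-05). Fabp4, the adipocyte and macrophage member, was scarce, with 21, 37 and 26 reads in Il22r-/- libraries and 8, 2 and 0 reads in Il22r+/+ libraries. The ratio of its pooled read shares was 8.64 (exact 95% interval 4.47 to 18.7, counting error only; log2 2.97 ± 0.67, edgeR adjusted p = 0.00461), and the log2 value was 4.58 without Il22r+/+ replicate 1. Fabp3, the muscle and heart member, averaged 13.1 ± 3.57 CPM in Il22r-/- cells and 7.97 ± 0.923 CPM in Il22r+/+ cells (log2 0.72 ± 0.20, edgeR adjusted p = 0.0151). Its call was lost under 5 alternatives, among them leaving out replicate 1 or 2 of either genotype (adjusted p up to 0.0895). Of the 50-base stretches of Fabp3, 29.2% recur in transcripts of other genes, of which the pseudogene Fabp3-ps1 shares the most. For Fabp5 that share was 5.48%, most of all with Gm6166. Exons of Zcchc17 on the opposite strand cover 9.84% of Fabp3's exon length.

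Markers of some other cell types also differed between the genotypes. For comparison, 23.6% of all tested genes passed higher and 22.1% lower. Of 12 macrophage markers 11 were testable and 10 passed higher, with a summed level of 62.2, 90.9 and 30.8 CPM in Il22r-/- replicates 1 to 3 and 10.97 to 13.8 CPM in Il22r+/+ libraries. Among the Il22r-/- libraries replicate 2 was highest in this sum, Cd36, Fabp4 and Fabp5, but Fabp3 was highest in replicate 1 and Lpl in replicate 3. The lowest was replicate 3 in this sum, Fabp5 and Fabp3, but replicate 1 in Cd36, Fabp4 and Lpl. Of the 10 higher macrophage markers, 7 entered the test through the Il22r-/- libraries alone. Lyz2, a macrophage lysozyme, averaged 29.4 ± 14.8 CPM in Il22r-/- cells and 2.74 ± 0.474 CPM in Il22r+/+ cells. Of 10 mesothelial and surface epithelium markers all were testable and 8 passed lower, with sums of 171 to 186 CPM in Il22r-/- libraries and 952 to 968 CPM in Il22r+/+ libraries. Of 8 adipocyte markers only Lipe was testable, Adipoq had 1, 0 and 0 reads in Il22r-/- libraries and 1, 1 and 0 in Il22r+/+ libraries, and Cfd had 0 reads in every library. Of 10 stroma and smooth muscle markers, all testable, 4 passed higher (Acta2, Col1a2, Myh11 and Des) and 3 lower (Col3a1, Dcn and Tagln), with sums of 561 to 932 CPM in Il22r-/- libraries and 962 to 999.6 CPM in Il22r+/+ libraries. Dcn averaged 10.6 ± 2.59 CPM in Il22r-/- cells and 242 ± 64.2 CPM in Il22r+/+ cells, and Col1a2 averaged 61.2 ± 32.8 CPM in Il22r-/- cells and 1.61 ± 1.18 CPM in Il22r+/+ cells (both chosen after their values were seen). Of 7 theca and interstitial markers 2 were testable, 1 higher (Ptch1) and 1 lower (Aldh1a1), with sums of 3827 to 4372 CPM in Il22r-/- libraries and 5068 to 5216 CPM in Il22r+/+ libraries. Aldh1a1 made up most of these sums, at a mean of 4093 CPM in Il22r-/- cells and 5121 CPM in Il22r+/+ cells. The theca marker Cyp17a1 had 2 reads over the Il22r-/- libraries and 4 over the Il22r+/+ libraries, and Insl3 had 1 and 4. Of 10 endothelial markers 5 were testable, 2 higher and 1 lower, with sums of 7.81 to 12.8 CPM in Il22r-/- libraries and 7.89 to 9.58 CPM in Il22r+/+ libraries. Col1a2, Myh11, Des and the 2 higher endothelial markers entered the test only through the Il22r-/- libraries. Of the lower mesothelial and surface epithelium markers, 1 entered only through the Il22r+/+ libraries. Calls of markers that entered through 1 genotype are given as description. In bulk RNA, fewer cells of a type and less RNA per cell cannot be told apart. The part of these cell types in the values of Cd36, Fabp4, Fabp5 or Lpl was not tested.

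Of 5 triglyceride synthesis genes 3 fell. Lpin1, the phosphatidate phosphatase that also acts as a transcriptional cofactor, had 40.3, 50.6 and 61.0 CPM in Il22r-/- libraries and 104, 100.3 and 108 CPM in Il22r+/+ libraries. It fell 2.06-fold (log2 -1.04 ± 0.13, edgeR adjusted p = 0.000161). Gpam, the mitochondrial acyltransferase of the first step, had 144, 137 and 154 CPM in Il22r-/- libraries and 198, 196 and 186 CPM in Il22r+/+ libraries (log2 -0.41 ± 0.07, edgeR adjusted p = 0.00115). Dgat1, which adds the last acyl chain, averaged 23.5 ± 0.988 CPM in Il22r-/- cells and 28.9 ± 1.43 CPM in Il22r+/+ cells (log2 -0.30 ± 0.09, edgeR adjusted p = 0.0220), a call lost under 4 alternatives, among them leaving out Il22r+/+ replicate 1 or 3 (adjusted p up to 0.115). Dgat2, an unrelated enzyme for the same step, was scarce, at 3.17 ± 0.297 CPM in Il22r-/- cells and 2.54 ± 0.337 CPM in Il22r+/+ cells (interval -0.20 to 0.83). Agpat2 averaged 18.5 ± 2.80 CPM in Il22r-/- cells and 22.1 ± 1.06 CPM in Il22r+/+ cells (interval -0.53 to 0.02), and neither passed.

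Of 3 droplet genes 1 fell. Plin2, the main droplet coat protein outside fat tissue, had 82.4, 84.5 and 79.0 CPM in Il22r-/- libraries and 78.2, 81.2 and 85.3 CPM in Il22r+/+ libraries. These values overlap, and the interval of the log2 difference was -0.15 to 0.16. Plin3, another coat protein, averaged 96.9 ± 11.5 CPM in Il22r-/- cells and 105 ± 4.14 CPM in Il22r+/+ cells (interval -0.32 to 0.09). Pnpla2, the first triglyceride lipase, averaged 102 ± 14.0 CPM in Il22r-/- cells and 132 ± 10.6 CPM in Il22r+/+ cells and fell (log2 -0.37 ± 0.10, edgeR adjusted p = 0.0136), a call lost under 3 alternatives, among them leaving out Il22r-/- replicate 2 or Il22r+/+ replicate 3 (adjusted p up to 0.0712).

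Summed per length, all 37 genes made up 961 ± 52.3 FPKM in Il22r-/- cells and 1411 ± 15.4 FPKM in Il22r+/+ cells (SD, n = 3 each). Desaturation and elongation genes held the largest part of both sums, at 392 ± 59.8 FPKM in Il22r-/- cells and 636 ± 12.3 FPKM in Il22r+/+ cells. Mitochondrial oxidation genes followed, at 231 ± 19.1 FPKM in Il22r-/- cells and 349 ± 8.12 FPKM in Il22r+/+ cells. The difference between these oxidation sums lay mostly in Acaa2, at 47.7 FPKM in Il22r-/- cells and 166 FPKM in Il22r+/+ cells. Scd2 by itself was 27.7% of the sum of all 37 genes in Il22r-/- cells and 33.2% in Il22r+/+ cells. The Il22r-/- libraries also differed more among themselves: the median coefficient of variation of the 37 genes was 10.0% in Il22r-/- libraries and 4.20% in Il22r+/+ libraries, against 11.9% in Il22r-/- libraries and 7.76% in Il22r+/+ libraries over all tested genes. Among the 14 lower genes, 9 (64.3%) had their lowest value in Il22r-/- replicate 1 and their highest in replicate 3, an order shared by 28.0% of all genes called lower.

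**Figure D3:**
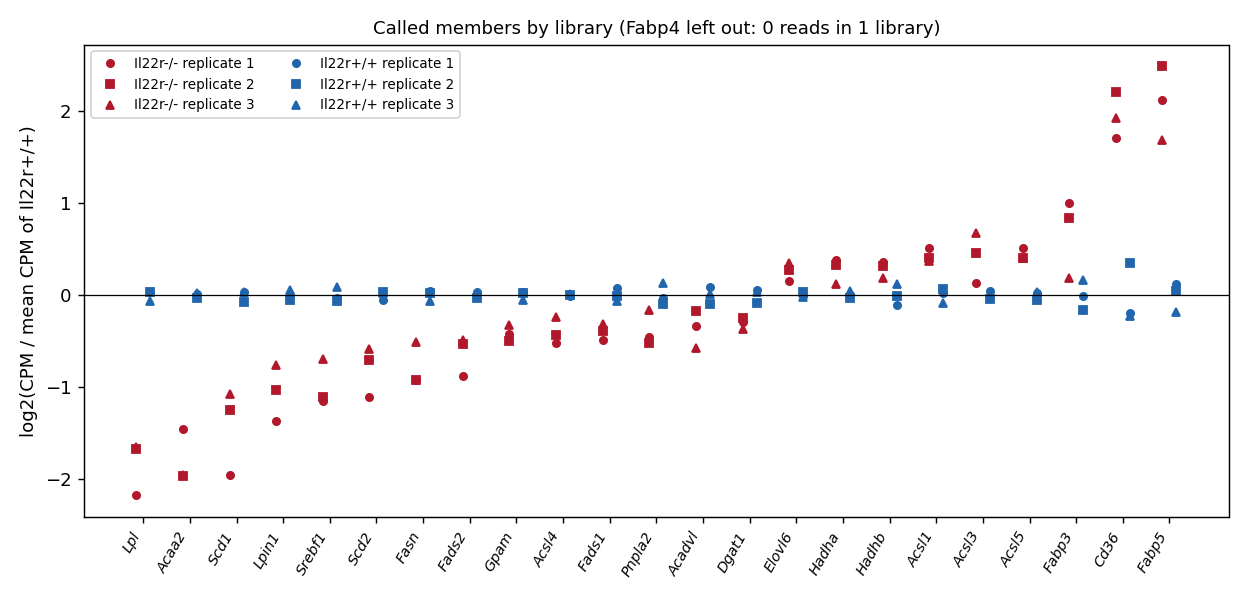
Level of 23 called genes in each library relative to the mean of the Il22r+/+ libraries (log2 scale), with the Il22r-/- libraries on the left. Fabp4 is left out because it had 0 reads in 1 library.

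Ratios between related members within a library do not depend on scaling between libraries. With 3 libraries against 3 the exact permutation test cannot go below p = 0.1, so none of 9 ratios could pass, and 6 did not overlap. The log2 ratio of Scd1 to Scd2 averaged -4.29 in Il22r-/- libraries and -3.67 in Il22r+/+ libraries (exact p = 0.1). Acsl4 to Acsl3 averaged 2.09 in Il22r-/- libraries and 2.91 in Il22r+/+ libraries (exact p = 0.1). Fabp3 to Fabp5 averaged -0.37 in Il22r-/- libraries and 1.05 in Il22r+/+ libraries (exact p = 0.1). Fads1 to Fads2 averaged 0.59 in Il22r-/- libraries and 0.35 in Il22r+/+ libraries (exact p = 0.1). Benjamini-Hochberg adjusted values over the 9 pairs lay between 0.15 and 0.9.

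**Figure D4:**
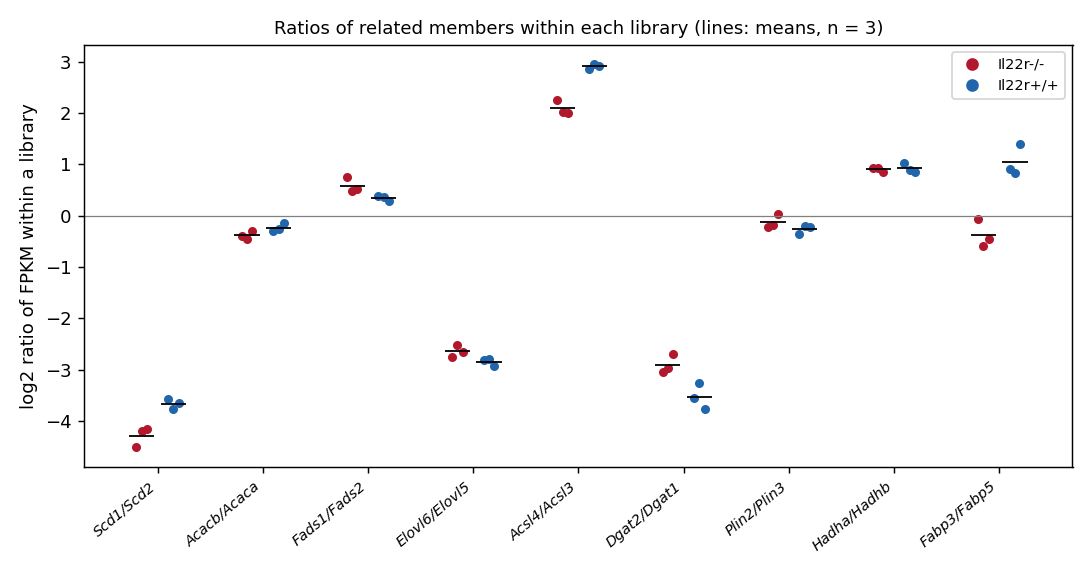
Log2 ratio of FPKM for 9 gene pairs in each library, Il22r-/- left of Il22r+/+ within each pair, with a line at each mean. Hadha to Hadhb overlaps between the genotypes, and Fabp3 to Fabp5 has the widest separation.

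Of 135 other genes of the same pathways, 116 were tested, 21 passed higher and 39 lower (51.7%, against 45.7% of all tested genes), with a median log2 difference of -0.14. By list, the share called ran from 41.2% of peroxisomal genes to 70.0% of genes of acetyl-CoA, citrate and NADPH supply. Among 21 regulators 3 were higher and 7 lower. Scap, the escort protein of SREBP, averaged 374 ± 39.8 CPM in Il22r-/- cells and 958 ± 3.79 CPM in Il22r+/+ cells (log2 -1.36 ± 0.09, edgeR adjusted p = 2.21e-06). Prkaa2, a catalytic subunit of AMP-activated kinase, averaged 42.7 ± 3.96 CPM in Il22r-/- cells and 21.5 ± 1.47 CPM in Il22r+/+ cells (log2 0.99 ± 0.10). Ppargc1a, a coactivator of oxidation genes, had 47 reads over the Il22r-/- libraries and 9 over the Il22r+/+ libraries (ratio of read shares 5.37, exact 95% interval 2.60 to 12.5), and Ppargc1b a log2 difference of 1.59 that lost its call under 4 alternatives, among them leaving out Il22r-/- replicate 2 or Il22r+/+ replicate 1 or 2. Among 10 genes of acetyl-CoA, citrate and NADPH supply 3 were higher and 4 lower. Acss2, the cytosolic acetyl-CoA synthetase, averaged 12.6 ± 1.36 CPM in Il22r-/- cells and 26.6 ± 2.39 CPM in Il22r+/+ cells, whereas its mitochondrial relative Acss1 was higher (log2 1.70, call lost under 1 alternative). Malic enzyme gene Me1 averaged 1109.7 ± 216 CPM in Il22r-/- cells and 739 ± 35.8 CPM in Il22r+/+ cells, and G6pdx fell (log2 -0.54).

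Of 17 peroxisomal genes tested, 6 were lower and 1 higher (41.2% called, against 45.7% of all tested genes). Acaa1b (log2 -1.64, call lost without Il22r+/+ replicate 1) and Amacr (log2 -0.35, lost under 9 alternatives, among them leaving out any library except Il22r-/- replicate 3) were lower and Phyh higher (log2 0.61). Of 18 other carnitine shuttle and mitochondrial genes tested, 3 were higher and 5 lower (44.4% called, also under that share). Cpt1c (log2 -1.08), Acad11 (log2 -0.55) and the carnitine transporter gene Slc22a5 (log2 -0.53) were lower and Hadh higher (log2 0.57). Of 15 other elongation and desaturation genes 3 were higher and 5 lower, among them Hacd1 (log2 0.83), Mecr (log2 0.57) and Cyb5r3 (log2 -0.79). Elovl2 had 57 reads over the Il22r-/- libraries and 3 over the Il22r+/+ libraries (ratio of read shares 19.5, exact 95% interval 6.36 to 97.6, counting error only). Elovl2, Ppargc1a, Ppargc1b and Acss1 entered the test only through the Il22r-/- libraries and Acaa1b and Pnpla3 only through the Il22r+/+ libraries, so their calls are given as description.

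Among 12 tested genes of uptake, binding and activation 5 were higher and 3 lower. Lipg, endothelial lipase, averaged 10.6 ± 2.11 CPM in Il22r-/- cells and 117 ± 4.75 CPM in Il22r+/+ cells (log2 -3.47 ± 0.13, edgeR adjusted p = 4.85e-08), a relative of Lpl that was lower too. Acsbg1, another acyl-CoA synthetase, averaged 360.3 ± 60.6 CPM in Il22r-/- cells and 100.2 ± 10.8 CPM in Il22r+/+ cells (log2 1.85 ± 0.13, edgeR adjusted p = 3.09e-06). The transporter genes Slc27a3 (log2 1.58) and Slc27a6 (log2 1.29) were higher. Of 11 other triglyceride genes 2 were higher and 4 lower: Lpin3 (log2 1.20) and Gpat3 (log2 0.73, call lost under 5 alternatives, among them leaving out Il22r-/- replicate 1 or 3 or Il22r+/+ replicate 1 or 2) were higher, and Lclat1 (log2 -0.65) and Agpat1 (log2 -0.46) among the lower. Lpin3 rose while Lpin1 fell. Of 12 other droplet and lipolysis genes 1 was higher and 5 lower. Soat1, which makes cholesterol ester, averaged 251 ± 42.2 CPM in Il22r-/- cells and 646 ± 52.6 CPM in Il22r+/+ cells (log2 -1.36 ± 0.12, edgeR adjusted p = 1.18e-05). Lipe (log2 -0.87) and Fitm2 (log2 -0.71) were lower, and Pnpla3 had 4 reads over the Il22r-/- libraries and 55 over the Il22r+/+ libraries.

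Scaling by library size alone moved the median log2 difference of all tested genes by 0.103 and the share of calls that were higher to 63.6%, against 51.6% with TMM. Under it 23 of the 37 genes were called, 11 higher and 12 lower (47.4% of all tested genes).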

How the data were processed

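The authors deposited raw read counts per gene and FPKM values for 6 libraries; per the submitters' processing notes, reads were counted with featureCounts 1.5.0-p3 on mm10. The sources used here name no aligner or strand setting. FPKM used in ratios and sums is the authors' deposited value. Counts were tested as deposited in edgeR 4.0.16 (R 4.3.3; filterByExpr, TMM, robust quasi-likelihood fit, genotype only), with Benjamini-Hochberg adjustment over 15227 genes and a threshold of 0.05. Log2 fold changes are Il22r-/- minus Il22r+/+. Alternatives used DESeq2 1.42.0, limma 3.58.1, other scalings and filters, FPKM with pseudocounts of 1 and 0.1, a replicate block, and each library left out. This test was tried on simulated counts first. The 37 genes and all lists were chosen with earlier results of these data known. Named were all 37, up to 4 called genes of each related list by size of change, abundant markers, and Il22ra1; 1 gene that this rule names is not reported here. Exon overlaps used GENCODE M21, and start sites RefSeq.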

Additional observations from a re-analysis of the deposited data

How the results depend on the processing

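Over 16 alternatives, the 37 genes gave 592 results, of which 538 kept their side of the threshold, 51 lost the call and 3 gained one. No called gene changed direction; the log2 difference changed sign in 14 results of 6 uncalled genes (8 for Plin2, 2 for Acaca and 1 each for Acly, Cpt2, Elovl1 and Elovl5). Of the 37, 16 were called and 4 called higher with limma on log2(FPKM + 1) without a filter, against 24 and 10. Leaving out 1 library at a time gave 16 to 23 called, 4 to 9 higher and 11 to 15 lower, and 5411 to 8243 called among all genes. Among related genes, 33 were called higher with library size alone, against 21, and 49 to 71 were called with a library left out. The Hadha to Hadhb log2 ratio difference was -0.014 (-0.052 to 0.036 with a library left out) and changed sign to 0.01 without Il22r-/- replicate 3 and to 0.036 without Il22r+/+ replicate 1. Same-numbered libraries did not deviate together (correlation across genes 0.026, -0.041 and -0.028). These values cannot exclude that the numbers pair the samples, which the labels do not state. With a replicate block 22 of the 37 (9 higher, 13 lower) and 6405 genes were called. Depth limits Fabp4, Dgat2, Elovl2, Pnpla3 and Ppargc1a.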

Other observations

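Members that lie within 300 kb of each other formed 5 pairs. Fads1 and Fads2 (81.1 kb apart), Scd1 and Scd2 (87.6 kb), Fabp4 and Fabp5 (187 kb) and Hadha and Hadhb moved in the same direction within each pair, while Gpam (log2 -0.41) and Acsl5 (log2 0.44), 124.7 kb apart on chromosome 19, moved in opposite directions. Chromosome 19 held 7 of the 37 genes.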
